A study of Mus musculus with 58 samples.

Results

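Ribosomal protein genes were followed in the quadriceps muscle of 4 mouse models studied for myotonic dystrophy and of their wild types, a disease in which RNA with an expanded CUG repeat accumulates in muscle. A gene was taken when its array annotation gave 1 symbol and that symbol named a protein of the cytosolic ribosome (Rpl, Rps, Rplp or Rpsa names) or of the mitochondrial ribosome (Mrpl or Mrps names), and each was read from its brightest probe set in each experiment. This gave 126 genes of the 18193 genes with a single symbol, 50 cytosolic and 76 mitochondrial. The cytosolic ones comprise 26 of the large subunit, 23 of the small subunit and Rps19bp1, a nucleolar protein whose symbol fits the rule though it is no subunit. The mitochondrial ones comprise 47 of the large and 29 of the small subunit.

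All 34 mice were male, and total RNA of the quadriceps was hybridised to 58 Affymetrix arrays in 3 experiments. Experiment 1 held 6 mice of line 20b and 6 of line 41, which are separate transgenic lines carrying CUGexp RNA, and 6 FVB wild-type mice, all 6 months old. Experiment 2 held 3 Clcn1-null mice, which lack the muscle chloride channel and so have myotonia without the repeat RNA, and 3 BALB wild-type mice, all 3 months old. Experiment 3 held 5 Mbnl1-null mice, which lack a splicing regulator that the repeat RNA sequesters, and 5 FVB wild-type mice, all 3 months old. In both transgenic lines the repeat is driven by the human skeletal actin promoter, so it is made in muscle fibres and not in the other cells of the tissue. In such whole tissue, fewer cells of a type and less RNA per cell cannot be told apart.

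Cytosolic ribosomes translate the messages of the nucleus, and their proteins are made in matched amounts because each is needed once per ribosome. Most of their messages begin with a C followed by a run of pyrimidines, through which growth signalling by mTOR sets their translation. Mitochondrial ribosomes have their own set of nuclear-encoded proteins and make the few respiratory chain subunits that mitochondrial DNA encodes, a large task in muscle.

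RefSeq windows around the annotated start (build GRCm38.p6) were at hand for 44 of the 50 cytosolic and 67 of the 76 mitochondrial genes. In the 30 bases centred on the start, the letters CTTTC stood on the sense strand in 11 of 44 cytosolic genes (25%) and in 3 of 67 mitochondrial genes (4.48%), against 4.76% of all 27025 genes of the table. With both strands counted, the shares were 27.3%, 8.96% and 8.83%. Among cytosolic genes, CTTTC stood on the sense strand in 3 of the 21 that rose in line 20b and in 8 of the 23 others. The share was thus lower among the genes that rose (14.3%) than among the others (34.8%), a difference that was not tested. These 3 are shown as examples of where the letters lie, with CTTTC in capitals. Rpl13a lies at chr7:45128731-45128760 on the minus strand, Rpl38 at chr11:114668565-114668594 on the plus strand and Rps26 at chr10:128626492-128626521 on the minus strand.
Rpl13a: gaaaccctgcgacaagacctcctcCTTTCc
Rpl38: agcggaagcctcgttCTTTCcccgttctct
Rps26: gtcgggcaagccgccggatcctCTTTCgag

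The letters CCGGAAG, the core bound by ETS family factors, were searched on both strands in the 100 bases before the start. They stood in 11 of 44 cytosolic genes (25%) and in 14 of 67 mitochondrial genes (20.9%), against 5.22% of all genes of the table. Its share was above that of the table in both classes. Among cytosolic genes it stood in 7 of the 21 that rose in line 20b and in 4 of the 23 others. Among mitochondrial genes it stood in 3 of the 11 that rose and in 11 of the 56 others. Neither difference was tested. The windows below are examples from genes that rose in line 20b, with the match in capitals (CTTCCGG is its other strand). Rpl19 lies at chr11:98026610-98026709 on the plus strand, Rpl41 at chr10:128549169-128549268 on the minus strand and Rps7 at chr12:28635954-28636053 on the minus strand. Mrps27 lies at chr13:99344686-99344785 and Mrpl52 at chr14:54426809-54426908, both on the plus strand.
Rpl19: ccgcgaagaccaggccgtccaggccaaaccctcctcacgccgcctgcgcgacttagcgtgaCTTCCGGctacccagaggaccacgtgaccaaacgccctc
Rpl41: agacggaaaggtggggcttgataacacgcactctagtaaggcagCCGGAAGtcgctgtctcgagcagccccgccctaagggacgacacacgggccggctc
Rps7: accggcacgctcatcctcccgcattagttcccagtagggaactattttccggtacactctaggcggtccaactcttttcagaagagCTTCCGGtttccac
Mrps27: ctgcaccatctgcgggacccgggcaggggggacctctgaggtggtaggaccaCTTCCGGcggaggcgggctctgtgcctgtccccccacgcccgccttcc
Mrpl52: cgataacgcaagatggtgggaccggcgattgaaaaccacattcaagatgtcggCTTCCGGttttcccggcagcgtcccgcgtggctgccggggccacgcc

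Levels below are log2 GCRMA intensities, and a difference is mutant minus wild type on that log2 scale. A gene was tested when its log2 level was 5 or more (intensity 32) in a number of mice no lower than the size of the experiment's smallest group. All 76 mitochondrial genes were tested in every experiment, and 44, 47 and 44 of the 50 cytosolic genes in experiments 1, 2 and 3. The cytosolic genes below this level were Rpl12, Rpl14, Rps16, Rps27, Rps4l and Rps6 in experiment 1, Rps16, Rps4l and Rps6 in experiment 2, and Rpl12, Rpl14, Rpl39l, Rps16, Rps27 and Rps4l in experiment 3. Rpl3 has no probe set of a single symbol and was not measured. Of the 50 cytosolic probe sets in experiment 1, 16 carry the suffix _x_at and 1 the suffix _s_at, which mark probes shared with other sequences or transcripts, as do 3 and 6 of the 76 mitochondrial ones. Pseudogene and paralogue signal may be part of these values, among them Rpl41, Rpl7, Rpl13a, Rps7, Rps9, Mrps12, Mrps24, Mrpl9, Mrpl37 and Mrpl44. Arrays of one experiment correlated at 0.9785 to 0.998 over genes, and all 12 skeletal muscle fibre markers were measured in each experiment. Clcn1 was 1.42 lower in Clcn1-null than in BALB wild-type muscle and Mbnl1 was 0.73 lower in Mbnl1-null than in FVB wild-type muscle, though where these probe sets lie relative to the deleted parts is not known here. Counts of experiment 1 are also given without its wild-type mice 1 and 2, which an earlier look at these data had found to stand apart in other gene groups.

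In line 20b, 24 of 44 cytosolic ribosomal protein genes rose and none fell, at adjusted p under 0.05 (the test is limma over all genes). Of all 13036 genes tested, 19.5% passed in either direction, 9.1% rising and 10.4% falling. The median cytosolic difference was 0.195, or 14.5% more signal, against a median of -0.012 over all genes tested. The changes were small: 40 of 44 genes lay above 0 and none reached a 2-fold change. Both subunits took part, with 12 of 24 large-subunit genes and 12 of 19 small-subunit genes rising. The groups did not overlap for 9 of 44 genes, beside 10.6% of all genes. Bright genes passed more often in general: of all 2740 genes with a mean level of 12 or more, a limit chosen after the values were seen, 17.7% rose and 18.3% fell, where 23 of the 38 cytosolic genes at that level rose and none fell.

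**Figure D1:**
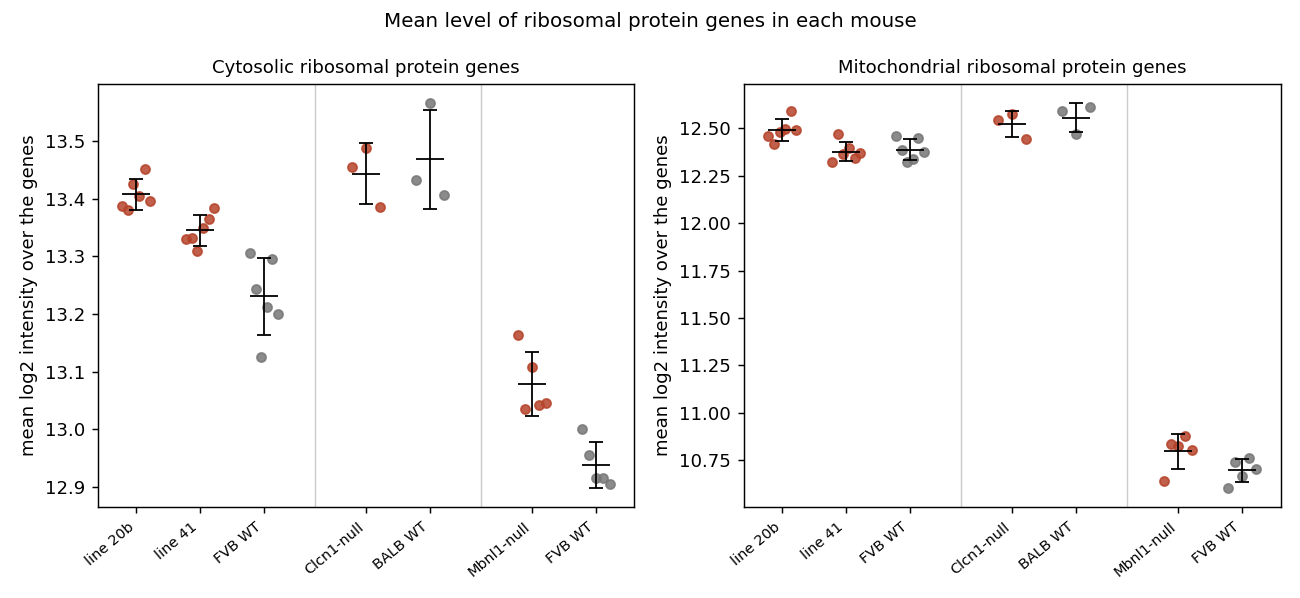
Mean log2 intensity over the cytosolic (left) and mitochondrial (right) ribosomal protein genes that were tested, one point per mouse, with the group mean and SD as bars and experiments parted by vertical lines. Cytosolic means lay between 13.38 and 13.45 in line 20b, between 13.31 and 13.38 in line 41 and between 13.13 and 13.31 in their wild type, and levels are comparable only within an experiment.

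Averaged over the 44 genes, the level in single mice spanned 13.38 to 13.45 in line 20b (median 13.40), against 13.13 to 13.31 in FVB wild type (median 13.23). The mouse means did not overlap. Without wild-type mice 1 and 2, 24 cytosolic genes rose, 21 of them shared with the full set.

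Among large-subunit genes, Rpl41, which encodes a very short basic peptide, had a level of 14.21 to 14.36 in line 20b (median 14.29), against 13.77 to 14.22 in wild type (median 13.98), a difference of 0.31 ± 0.08 (SE; adjusted p = 0.0074). The lowest line 20b mouse lay just under the highest wild type. Of its 3 other probe sets, 2 also rose (0.27 and 0.24), and one near the lower limit, the only one with no shared probes, read 5.66 in line 20b and 5.73 in wild type. Rpl7 spanned 13.83 to 14.00 in line 20b (median 13.97), against 13.48 to 13.76 in wild type (median 13.65), without overlap (0.30 ± 0.05, adjusted p = 0.000539). Rpl19, which helps to bridge the subunits, spanned 13.16 to 13.40 (median 13.28) in line 20b, against 12.83 to 13.22 (median 13.04) in wild type, a difference of 0.26 ± 0.06 (adjusted p = 0.00388). Rpl13a, also known as a translational repressor of inflammatory messages, spanned 14.49 to 14.79 in line 20b, against 14.18 to 14.55 in wild type (0.25 ± 0.07, adjusted p = 0.0114). These changes were 1.19- to 1.24-fold, and 3 of the 4 genes had at least 1 line 20b mouse within the wild-type range. Rplp0, the base of the stalk that recruits translation factors and a common reference gene in PCR, spanned 15.21 to 15.43 (median 15.39) in line 20b, against 15.01 to 15.22 (median 15.19) in wild type. Its difference was 0.19 ± 0.05 (adjusted p = 0.00705), a 1.14-fold change. Rpl6 differed by 0.23 (adjusted p = 0.0239) and Rpl27 by 0.23 (adjusted p = 0.0281).

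Rpl3l, the striated muscle paralogue of Rpl3 that takes its place in the large subunit of mature fibres, rose in both lines. It spanned 13.99 to 14.27 in line 20b (median 14.18), 14.18 to 14.40 in line 41 (median 14.27) and 13.91 to 14.11 in wild type (median 14.02). Line 41 lay wholly above wild type (0.27 ± 0.05, adjusted p = 0.00239), and line 20b overlapped it (0.16 ± 0.05, adjusted p = 0.0358).

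Among small-subunit genes, Rpsa, whose product also gives rise to the laminin receptor, spanned 12.82 to 13.08 in line 20b (median 12.93), against 12.42 to 12.70 in wild type (median 12.64). The groups did not overlap, and the difference was 0.34 ± 0.07 (adjusted p = 0.00154), or 1.26-fold. Rps15, which reaches toward the decoding site, spanned 15.19 to 15.33 (median 15.28) in line 20b, against 14.68 to 15.13 (median 15.01) in wild type (0.29 ± 0.06, adjusted p = 0.00106). Rps7, which can bind the p53 regulator Mdm2, spanned 13.90 to 14.24 (median 14.11) in line 20b, against 13.64 to 13.93 (median 13.80) in wild type (0.29 ± 0.06, adjusted p = 0.00154). Rps26, which sits at the exit of the messenger RNA channel, spanned 13.06 to 13.21 in line 20b and 12.66 to 13.04 in wild type (0.22 ± 0.06, adjusted p = 0.0117). Of these 4, only Rps7 had overlapping groups. Rps4x, encoded on the X chromosome, differed by 0.24 ± 0.06 (adjusted p = 0.00899). The largest small-subunit difference, 0.80 ± 0.16 for Rps25 (adjusted p = 0.00115), came from a dim probe set that spanned 8.58 to 9.19 in line 20b and 7.70 to 8.26 in wild type. The chosen single-symbol probe set was the only one tested for Rps25.

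Of the 24 cytosolic genes that rose in line 20b, 12 had another probe set tested; in 9 of these another probe set also rose, and for Rps3 another fell. At adjusted p under 0.01 the count was 13, and 1 cytosolic gene fell when line 41 mouse 2 or 6, which share the fit, was left out. Leaving out single mice gave 17 to 24 rising, and some named calls were lost in part of the 18 runs, among them Rps9 (14 runs, adjusted p up to 0.112), Rpl3l (9 runs, up to 0.0862), Rpl22 (5 runs, up to 0.0713), Rpl6 (4 runs, up to 0.0541) and Rpl27 (3 runs, up to 0.0628). Rps26 kept its call in all 18 runs.

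Paralogue pairs were also compared. Rpl22, an RNA-binding large-subunit protein, spanned 14.48 to 14.85 in line 20b, against 14.35 to 14.60 in wild type (0.19 ± 0.06, adjusted p = 0.0284). Its paralogue Rpl22l1 spanned 14.55 to 14.68 in line 20b, against 14.67 to 14.96 in wild type, and its difference of -0.18 ± 0.07 did not pass (adjusted p = 0.0753). Rps27l, a paralogue of Rps27 induced by p53, spanned 15.02 to 15.37 in line 20b and 14.92 to 15.27 in wild type (adjusted p = 0.49). Rpl39 gave 0.21 ± 0.09 (adjusted p = 0.105) and its germ-cell paralogue Rpl39l, close to the lower limit at 5.41 to 5.53 in line 20b and 5.43 to 5.77 in wild type, gave -0.07 ± 0.12 (adjusted p = 0.754). Rpl7l1, named for Rpl7, gave -0.14 ± 0.12 (adjusted p = 0.486), beside 0.30 for Rpl7 itself.

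**Figure D2:**
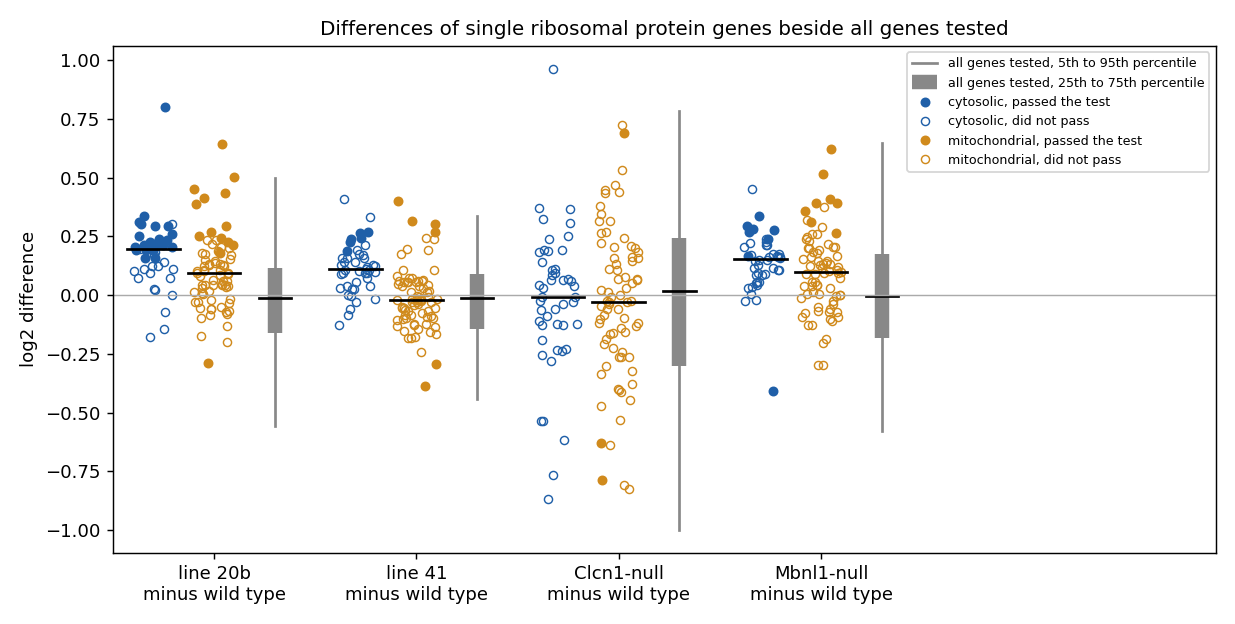
Log2 difference, mutant minus its own wild type, of each tested cytosolic (blue) and mitochondrial (orange) ribosomal protein gene; filled points passed the test, black lines are medians, and grey bars give the 25th to 75th and 5th to 95th percentiles of all genes tested. The cytosolic median was 0.195 for line 20b, 0.11 for line 41, 0.154 for Mbnl1-null and -0.006 for Clcn1-null muscle.

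In line 20b, 13 of 76 mitochondrial ribosomal protein genes rose and 1 fell, or 18.4%, beside 19.5% of all genes tested. The share is near that of all genes, while the split is 13 to 1 where all genes gave 1186 rising and 1357 falling. Their median difference was 0.094, with 58 of 76 above 0. At a mean level of 12 or more, 10 of 47 rose and 1 fell (23.4%), a smaller share than the 36.1% of all 2740 such genes. Averaged over the 76 genes, single mice spanned 12.42 to 12.59 in line 20b, against 12.32 to 12.46 in wild type, so the mouse means overlapped. By subunit, 7 of 47 large-subunit genes rose, and 6 of 29 small-subunit genes rose and 1 fell. With wild-type mice 1 and 2 left out, again 14 genes passed, 12 of them shared. A 2nd gene fell without wild-type mouse 2, 3 or 6.

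The small-subunit gene Mrps35 spanned 11.61 to 11.96 in line 20b (median 11.86), against 11.09 to 11.42 in wild type (median 11.17), without overlap (0.64 ± 0.08, adjusted p = 1.42e-05, 1.56-fold). Mrps27, a pentatricopeptide repeat protein of the small subunit, spanned 10.55 to 10.88 (median 10.63) in line 20b, against 9.70 to 10.48 (median 10.25) in wild type (0.50 ± 0.11, adjusted p = 0.00328). Mrps34, needed for small-subunit stability, spanned 12.42 to 12.67 (median 12.53) in line 20b, against 11.93 to 12.25 (median 12.09) in wild type (0.43 ± 0.06, adjusted p = 4.78e-05). In all 3, every line 20b mouse lay above every wild type. Mrps12, a decoding-site protein, spanned 12.46 to 12.78 in line 20b, against 11.88 to 12.34 in wild type (0.45 ± 0.08, adjusted p = 0.00061). Mrps36, later described as part of the oxoglutarate dehydrogenase complex rather than of the ribosome, spanned 12.99 to 13.08 in line 20b, against 12.67 to 12.87 in wild type (0.25 ± 0.05, adjusted p = 0.00217). Mrps24 fell: it spanned 13.74 to 13.97 in line 20b (median 13.80), against 14.02 to 14.19 in wild type (median 14.15), a difference of -0.29 ± 0.05 (adjusted p = 0.000451). Its other probe set, also tested, did not pass.

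Of the large subunit, Mrpl48 spanned 12.67 to 12.90 in line 20b (median 12.84), against 12.26 to 12.54 in wild type (median 12.45), without overlap (0.41 ± 0.06, adjusted p = 9.61e-05). Mrpl52 spanned 12.43 to 12.93 in line 20b, against 11.96 to 12.38 in wild type (0.39 ± 0.11, adjusted p = 0.0177), without overlap; of its other probe sets, one also rose (0.34) and one read 11.60 in line 20b and 11.66 in wild type (-0.06). Mrpl18, whose human product also helps bring ribosomal RNA into mitochondria, spanned 14.38 to 14.66 in line 20b and 14.05 to 14.41 in wild type (0.29 ± 0.09, adjusted p = 0.0284). Of the 13 genes that rose, 5 had another probe set tested, 2 had one that also rose, and Mrpl35 had one that fell. The calls for Mrpl18 (4 runs, adjusted p up to 0.0688), Mrpl37 (4 runs, up to 0.0573) and Mrps2 (3 runs, up to 0.0592) were lost when some single mice of the 18 were left out.

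Other genes of translation and ribosome assembly were read from the same fit. Fau, a cytosolic ribosomal protein under another name, rose by 0.23 ± 0.05 (adjusted p = 0.00378). Of 46 translation factors 11 rose and 3 fell (30.4%, beside 19.5% of all genes). Of all genes with a mean level of 12 or more, 36.1% passed. Eef2k, the kinase that inhibits elongation factor 2, rose (0.66 ± 0.07, adjusted p = 1.09e-06). The cap-binding protein Eif4e rose (0.45 ± 0.07, adjusted p = 6.86e-05) and the poly(A)-binding protein Pabpc1 fell (-0.42 ± 0.10, adjusted p = 0.00432). Of 86 ribosome biogenesis genes 10 rose and 2 fell (14%, a smaller share than that of all genes), led by Nop16 (0.73), Rrp12 (0.65) and the ribosomal RNA methyltransferase Fbl (0.61 ± 0.10, adjusted p = 0.00021). Of 47 genes of mitochondrial translation and mitoribosome assembly 8.51% passed: 3 rose, and the assembly factor Malsu1 fell (-0.34 ± 0.06, adjusted p = 0.000876). Their medians were 0.045, 0.012 and 0.008, beside 0.195 for the cytosolic ribosomal protein genes and -0.012 for all genes.

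Markers of other cells differed as well, beside 9.1% of all genes rising and 10.4% falling. Of 18 endothelial and mural markers 10 were lower in line 20b, their summed intensity spanning 61970 to 73160 in line 20b, against 77460 to 94370 in wild type. Of 7 adipocyte markers tested 5 were lower, the sum spanning 25140 to 31720 in line 20b, against 33450 to 124100 in wild type, with Lep under an intensity of 32 in every line 20b mouse. Of 5 nerve and Schwann cell markers tested 3 were lower, the sum spanning 8070 to 12070 in line 20b, against 11970 to 17830 in wild type, with S100b under an intensity of 32 in both groups. Of 9 satellite cell and regenerating fibre markers 2 were higher, Ncam1 by 1.14 and Myh3 by 1.06, the sum spanning 7508 to 9132 in line 20b, against 3853 to 10200 in wild type. Their part in the ribosomal protein values was not tested.

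In line 41, 6 of 44 cytosolic genes rose and none fell, or 13.6%, beside 9.17% of all genes tested in either direction, with 3.94% rising and 5.23% falling. At a mean level of 12 or more, 6 of 38 cytosolic genes rose (15.8%), beside 17.7% of all 2720 such genes in either direction, 7.65% rising and 10.1% falling. The share that passed is thus near that of genes as bright. The groups did not overlap for 2 of 44 genes, beside 4.24% of all genes. The median difference was 0.11, with 37 of 44 above 0 and 17 at an unadjusted p under 0.05. Averaged over the genes, single mice spanned 13.31 to 13.38 in line 41, against 13.13 to 13.31 in wild type, the same wild-type mice as for line 20b. Rpl3l is described above. Rpl41 spanned 14.12 to 14.46 in line 41 (median 14.19), against 13.77 to 14.22 in wild type (median 13.98; 0.27 ± 0.08, adjusted p = 0.0379). Rpl19 spanned 13.20 to 13.33 (median 13.25) in line 41, against 12.83 to 13.22 (median 13.04) in wild type (0.23 ± 0.06, adjusted p = 0.0205). Rps4x spanned 13.75 to 14.06 in line 41, against 13.55 to 13.81 in wild type (0.24 ± 0.06, adjusted p = 0.0187). In each of these 3 the groups overlapped. Rps9, an early-assembling small-subunit protein, spanned 12 to 12.40 in line 41, against 11.88 to 12.18 in wild type (0.24 ± 0.07, adjusted p = 0.0439), and Rps15 differed by 0.19 ± 0.06 (adjusted p = 0.0474). Rpsa and Rplp0 gave 0.16 ± 0.07 (adjusted p = 0.162) and 0.14 ± 0.05 (adjusted p = 0.0701).

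Only 3 cytosolic genes passed without line 41 mouse 1, 5 or 6 or without wild-type mouse 3 or 4, and 4 without wild-type mice 1 and 2 together. The calls for Rps15 (16 of 18 runs, adjusted p up to 0.0911), Rps9 (13 runs, up to 0.0863) and Rpl41 (6 runs, up to 0.0838) were lost when single mice were left out. Of the 6 cytosolic genes that rose, 3 had another probe set tested, and in none of these did another rise.

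Of the mitochondrial genes 4 rose and 2 fell in line 41, or 7.89%, near the 9.17% of all genes tested, with a median of -0.021. Mrps34 spanned 12.28 to 12.49 in line 41 (median 12.40), against 11.93 to 12.25 in wild type (median 12.09; 0.30 ± 0.06, adjusted p = 0.00399). Mrpl48 spanned 12.63 to 12.88 (median 12.70) in line 41, against 12.26 to 12.54 (median 12.45) in wild type (0.32 ± 0.06, adjusted p = 0.00335). Neither gene's groups overlapped. Mrps27 (0.40 ± 0.11, adjusted p = 0.0318) and Mrps35 (0.27 ± 0.08, adjusted p = 0.0429) also rose. Of the 4 genes that rose, 1 had another probe set tested, and no other probe set of that gene rose. Mrps24 fell, spanning 13.61 to 13.80 in line 41 (median 13.75), against 14.02 to 14.19 in wild type (-0.39 ± 0.05, adjusted p = 8.63e-05), again without overlap. Its other probe set again did not pass. Mrpl22 fell by 0.29 ± 0.06 (adjusted p = 0.00757).

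Only 2 of the 4 rises passed without line 41 mouse 2, 3, 4 or 6 or wild-type mouse 4 or 5, and over the 18 runs Mrps35 (13 runs, adjusted p up to 0.0895) and Mrps27 (6 runs, up to 0.0671) lost their calls. Without wild-type mouse 3, 4 genes fell, and without wild-type mice 1 and 2 together, 1 fell. Of the pathway lists, 6 of 46 translation factors rose and 1 fell (15.2%), with Eef2k at 0.57 ± 0.07 (adjusted p = 2.95e-05). Of 86 biogenesis genes 8 rose and 3 fell (12.8%), with Fbl at 0.56 ± 0.10 (adjusted p = 0.00157). Of all genes tested 9.17% passed, and 17.7% of those with a mean level of 12 or more. Fau rose by 0.23 ± 0.05 (adjusted p = 0.00809). Of the 18 endothelial and mural markers 9 were lower, summing to 51340 to 70410 in line 41 and 77460 to 94370 in wild type. Of 5 nerve and Schwann cell markers 2 were lower (5878 to 13660 in line 41, against 11970 to 17830 in wild type), and of 9 satellite cell and regenerating fibre markers 2 were higher (5759 to 12520 in line 41, against 3853 to 10200 in wild type). Their part was not tested.

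Set directly against line 41, line 20b had 9 mitochondrial genes higher and none lower of 76, or 11.8%, beside 5.98% of all genes tested, with 3.54% higher and 2.44% lower. At a mean level of 12 or more the share was no higher than that of all genes: 4 of 47 mitochondrial genes were higher and none lower (8.51%, median 0.123), beside 13.9% of all 2714 such genes (228 higher and 148 lower, median 0.027). The lines did not overlap for 3 of 76, beside 3.9% of all genes. The median mitochondrial difference was 0.101, with 63 of 76 above 0, against 0.006 over all genes. Among cytosolic genes 1 of 44 differed, and their median was 0.056. The mitochondrial ones included Mrps2, an early-binding small-subunit protein, which spanned 12.08 to 12.41 in line 20b (median 12.30), 11.73 to 11.97 in line 41 (median 11.85) and 11.66 to 12.12 in wild type. Mrps2 did not overlap between the lines, which differed by 0.40 ± 0.08 (adjusted p = 0.00618). Mrpl44, a large-subunit protein with an RNase III-like fold, spanned 11.83 to 12.10 in line 20b (median 11.95), 11.46 to 11.82 in line 41 (median 11.54) and 11.68 to 11.94 in wild type (0.35 ± 0.07, adjusted p = 0.00808). For both genes the median of line 20b lay above, and that of line 41 below, the wild-type median of 12.05 for Mrps2 and 11.76 for Mrpl44. Mrps35 spanned 11.61 to 11.96 in line 20b and 11.23 to 11.68 in line 41 (0.37 ± 0.08, adjusted p = 0.0103). Mrps9 differed by 0.35 ± 0.09 (adjusted p = 0.0258), Mrpl18 by 0.32 ± 0.09 (adjusted p = 0.0434), Mrpl37 by 0.24 ± 0.06 (adjusted p = 0.0349), Mrpl22 by 0.23 ± 0.06 (adjusted p = 0.0446), Mrpl47 by 0.21 (adjusted p = 0.0371) and Mrps36 by 0.21 ± 0.05 (adjusted p = 0.0254).

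**Figure D3:**
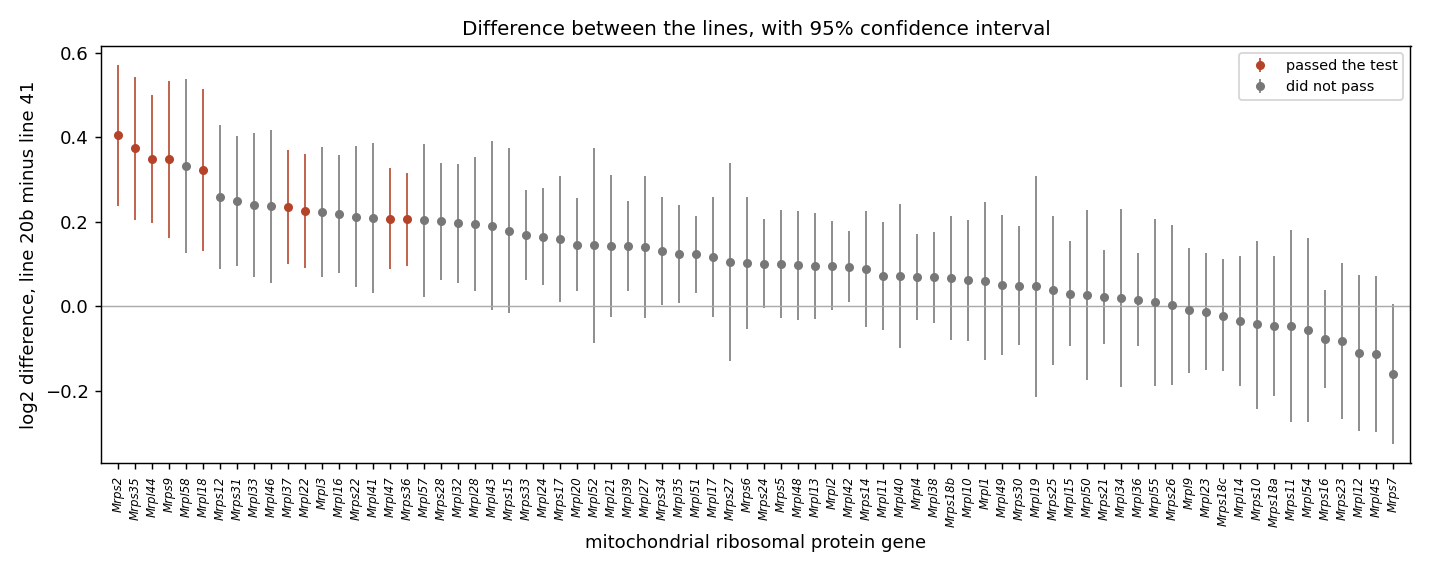
Log2 difference, line 20b minus line 41, of the 76 mitochondrial ribosomal protein genes, sorted by size, with bars for the 95% confidence interval (n = 6 mice each). The 9 genes that passed the test, in red, lay between 0.21 and 0.40, and 63 of 76 lay above 0.

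The 1 cytosolic gene was Rps3a1, which spanned 14.56 to 14.62 in line 20b, 14.33 to 14.52 in line 41 and 14.30 to 14.51 in wild type (0.15 ± 0.04, adjusted p = 0.038). Its call was lost in 10 of 18 runs without single mice, and the 9 mitochondrial calls dropped to 4 or 5 without line 41 mouse 1, 3 or 4 or line 20b mouse 1 or 5. Mrps2, Mrpl44 and Mrps35 passed in every one of those runs. The other calls were lost in part of them: Mrpl22 in 14 (adjusted p up to 0.102), Mrpl18 in 11 (up to 0.0929), Mrpl47 in 9 (up to 0.0916), Mrpl37 in 8 (up to 0.0848), Mrps9 in 5 (up to 0.0634) and Mrps36 in 3 (up to 0.0601). With the mean over probe sets Mrpl47 turned to -0.076, and Mrps2 and Mrps9 did not pass. Rps3a1 did not pass under quantile normalisation or the median shift. Of the 9 mitochondrial genes, 4 had another probe set tested, and in 1 of these another was also higher.

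In Mbnl1-null muscle, 7 of 44 cytosolic genes rose and 1 fell, or 18.2%, beside 16.2% of all 9021 genes tested, 8.06% rising and 8.18% falling. The share that passed is near that of all genes, whereas the median was 0.154, against -0.005 over all genes, and 41 of 44 genes lay above 0. Averaged over the genes, the mice spanned 13.04 to 13.16 in Mbnl1-null muscle, against 12.90 to 13 in FVB wild type, without overlap. Single genes did not overlap in 9 of 44 cases, beside 14.3% of all genes. Rps19, which matures ribosomal RNA and is mutated in Diamond-Blackfan anaemia, read 12.91, 12.60, 12.65, 12.61 and 12.77 in Mbnl1-null mice, against 12.48, 12.42, 12.29, 12.36 and 12.32 in wild type (0.34 ± 0.07, adjusted p = 0.0103). Rpl19 read 13.99, 13.74, 13.89, 13.81 and 13.91 in Mbnl1-null mice, against 13.53, 13.63, 13.62, 13.47 and 13.63 in wild type (0.29 ± 0.06, adjusted p = 0.00769). Rpsa read 12.52, 12.54, 12.67, 12.61 and 12.75 in Mbnl1-null mice, against 12.30, 12.29, 12.18, 12.41 and 12.50 in wild type (0.28 ± 0.07, adjusted p = 0.0232). In all 3 genes every Mbnl1-null mouse lay above every wild type. Rplp0 read 15.24, 15.15, 15.15, 15.13 and 15.17 in Mbnl1-null mice, against 15.02, 15.05, 14.98, 14.94 and 15.03 in wild type (0.17 ± 0.04, adjusted p = 0.0222). Rpl6 (0.28 ± 0.07, adjusted p = 0.0261), Rps9 (0.27 ± 0.08, adjusted p = 0.0454) and Rpl41 (0.24 ± 0.07, adjusted p = 0.0381) also rose.

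The cytosolic gene that fell was Rpl7l1, at 9.43, 9.76, 9.40, 9.29 and 9.12 in Mbnl1-null mice, against 9.78, 10.03, 9.76, 9.88 and 9.57 in wild type (-0.41 ± 0.12, adjusted p = 0.0464). One Mbnl1-null mouse lay within the wild-type range. Rpl3l read 14.10, 13.77, 14.35, 14.02 and 14.28 in Mbnl1-null mice, against 14.06, 14.14, 14.13, 13.99 and 14.31 in wild type, and its difference was -0.02 ± 0.105 with a 95% interval of -0.25 to 0.21. Rpl22l1 (0.10, adjusted p = 0.571) and Rps27l (0.05, adjusted p = 0.541) did not pass.

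Only 2 or 3 cytosolic genes rose without Mbnl1-null mouse 3 or without wild-type mouse 2, 3 or 4, Rps19 and Rpl19 passing in every run. The fall of Rpl7l1 was lost in 8 of 10 runs (adjusted p up to 0.111), as were the calls for Rps9 in 8 (up to 0.102), Rpl41 in 7 (up to 0.0885), Rpl6 in 4 (up to 0.0663), Rpsa in 4 (up to 0.0599) and Rplp0 in 2 (up to 0.0583). Of the 7 cytosolic genes that rose, 2 had another probe set tested, and in neither did another rise. No other probe set of Rpl7l1 fell.

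Of the mitochondrial genes 8 rose and none fell in Mbnl1-null muscle, or 10.5%, below the 16.2% of all genes tested, with a median of 0.1 and 55 of 76 above 0. None of the 9 with a mean level of 12 or more passed, and their median was -0.074. Mrpl9 read 10.42, 11.04, 10.85, 11.19 and 10.67 in Mbnl1-null mice, against 10.20, 10.09, 10.56, 10.23 and 9.98 in wild type (0.62 ± 0.15, adjusted p = 0.0171). Mrps12 read 10.02, 10.81, 10.36, 10.46 and 10.54 in Mbnl1-null mice, against 9.86, 10.06, 9.80, 9.92 and 9.97 in wild type (0.52 ± 0.13, adjusted p = 0.0183). In both genes a single Mbnl1-null mouse lay within the wild-type range. Mrps34 read 11.17, 11.53, 11.49, 11.41 and 11.39 in Mbnl1-null mice, against 10.90, 11.07, 11.02, 11.04 and 11 in wild type (0.39 ± 0.08, adjusted p = 0.00592). Mrps35 read 9.41, 9.67, 9.72, 9.51 and 9.64 in Mbnl1-null mice, against 9.24, 9.39, 9.17, 9.15 and 9.23 in wild type (0.36 ± 0.09, adjusted p = 0.0171). Neither of these 2 overlapped. Mrpl48 (0.41 ± 0.11, adjusted p = 0.0237), Mrps36 (0.39 ± 0.11, adjusted p = 0.0314), Mrpl3 (0.31 ± 0.09, adjusted p = 0.0384) and Mrpl40 (0.27 ± 0.07, adjusted p = 0.0291) also rose.

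Between 4 and 5 mitochondrial genes rose without Mbnl1-null mouse 3 or 4 or without wild-type mouse 1, 2 or 3. The calls for Mrpl48 (5 of 10 runs, adjusted p up to 0.0608), Mrps36 (6 runs, up to 0.0749), Mrpl3 (6 runs, up to 0.0888) and Mrpl40 (7 runs, up to 0.0667) were lost in some runs. Of the 8 mitochondrial genes that rose, 3 had another probe set tested, and in 2 of these another also rose. Of the pathway lists, 7 of 46 translation factors rose and 2 fell (19.6%), led by the elongation factor Eef1a1 (0.42 ± 0.07, adjusted p = 0.00187). Of 85 biogenesis genes 7 rose and 3 fell (11.8%), with Fbl at 0.66 ± 0.14 (adjusted p = 0.00941). Of all genes tested 16.2% passed, and 20.4% of those with a mean level of 12 or more. Of 11 macrophage and leukocyte markers tested 3 were higher, the summed intensity spanning 10380 to 19210 in Mbnl1-null muscle, against 6218 to 11270 in wild type, with Cd14, Cd3e, Cd79a and Itgam under an intensity of 32 in every mouse. Of 8 satellite cell and regenerating fibre markers 3 were higher, summing to 2319 to 3041 in Mbnl1-null muscle and 1472 to 1905 in wild type, with Pax7 under an intensity of 32 in every mouse. Their part in the ribosomal protein values was not tested.

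**Figure D4:**
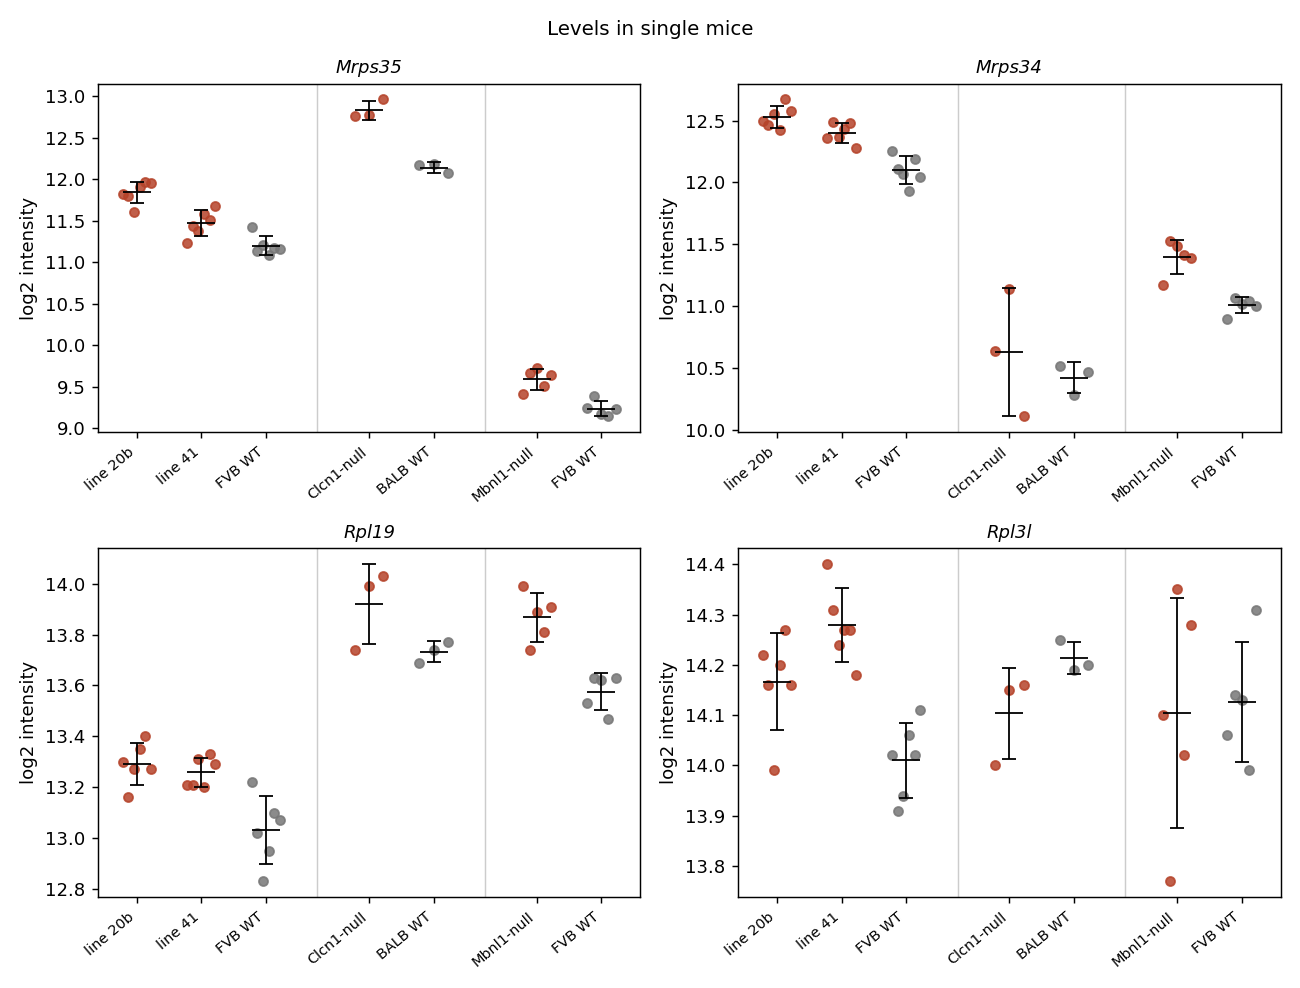
Log2 intensity of Mrps35, Mrps34, Rpl19 and Rpl3l in each mouse (points), with group mean and SD (bars) and experiments parted by vertical lines. Against the wild type of its experiment, Mrps35 was higher by 0.64 (line 20b), 0.27 (line 41), 0.69 (Clcn1-null) and 0.36 (Mbnl1-null), and Rpl3l spanned 14.18 to 14.40 in line 41, against 13.91 to 14.11 in wild type.

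In Clcn1-null muscle, none of 47 cytosolic genes passed the test in either direction, beside 5.4% of all 13122 genes tested, 2.2% rising and 3.2% falling. The median cytosolic difference was -0.006, with 23 of 47 above 0 and 3 genes at an unadjusted p under 0.05. With array weights, which count arrays that stand apart for less, 8 rose and 4 fell, and without Clcn1-null mouse 3, 1 rose and 1 fell. Mouse 3 lay apart in the mitochondrial gene Mrps10, which read 13.46, 13.65 and 12.47 in Clcn1-null mice 1 to 3, against 13.86, 13.81 and 13.82 in wild type. The 3 genes, named after their values were seen, were Rpl39l, Rps27l and Rps19. Rpl39l read 10.60, 10.48 and 9.69 in Clcn1-null mice, against 9.18, 9.57 and 9.13 in BALB wild type (0.96 ± 0.28, adjusted p = 0.117). Rps27l read 12.99, 13.07 and 12.80 in Clcn1-null mice, against 13.53, 13.54 and 13.38 in wild type (-0.53 ± 0.12, adjusted p = 0.0662). Rps19 read 13.31, 13.41 and 13.52 in Clcn1-null mice, against 13.01, 13.18 and 13.06 in wild type (0.33 ± 0.11, adjusted p = 0.179). None of these groups overlapped, as for 30.8% of all genes with 3 mice against 3. The difference for Rplp0 was 0.06 with a 95% interval of -0.36 to 0.48, which holds the 0.19 seen in line 20b. Rpsa read 13.64, 14.05 and 14.49 in Clcn1-null mice, against 13.60, 13.72 and 13.77 in wild type (0.37 ± 0.22, adjusted p = 0.398).

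Of the mitochondrial genes 1 rose and 2 fell in Clcn1-null muscle, or 3.95%, beside 5.4% of all genes tested, with a median of -0.027. Mrps35 read 12.76, 12.77 and 12.96 in Clcn1-null mice, against 12.17, 12.18 and 12.07 in wild type (0.69 ± 0.12, adjusted p = 0.031). Mrpl54 read 10.41, 10.46 and 10.11 in Clcn1-null mice, against 11.11, 11.04 and 11.19 in wild type (-0.79 ± 0.14, adjusted p = 0.0361). Mrpl52 read 12.30, 12.23 and 12.44 in Clcn1-null mice, against 12.94, 13.04 and 12.87 in wild type (-0.63 ± 0.12, adjusted p = 0.0402). In all 3 genes the groups did not overlap. Of the other probe sets of Mrpl52, one gave -0.45 (adjusted p = 0.133) and one read 12.98 in Clcn1-null and 12.97 in wild-type muscle. None of the 3 passed when Clcn1-null mouse 1 or 2 or any of the 3 wild-type mice was left out (adjusted p up to 0.153 for Mrps35, 0.163 for Mrpl54 and 0.183 for Mrpl52), without Clcn1-null mouse 3, 4 rose and 4 fell, and with array weights 12 rose and 14 fell. No translation factor rose and 2 fell, and of 87 biogenesis genes 2 fell, among them Utp6 (-1.30 ± 0.17, adjusted p = 0.0144). All 7 adipocyte markers tested were higher, summing to 108800 to 135600 in Clcn1-null muscle, against 43800 to 54750 in wild type, with Lep under an intensity of 32 in every mouse. Of 13 macrophage and leukocyte markers tested 1 was higher and 0 lower. They summed to 22760 to 33990 in Clcn1-null muscle, against 15000 to 22120 in wild type. Of 5 nerve and Schwann cell markers tested 1 was higher and 0 lower (20980 to 30890 in Clcn1-null muscle, against 13290 to 20540 in wild type). Of 8 satellite cell and regenerating fibre markers 1 was higher, the sum spanning 14380 to 19430 in Clcn1-null muscle, against 4650 to 5474 in wild type, with Pax7 under an intensity of 32. That marker was Myh3, at a mean log2 level of 13.71 against 10.58 in wild type. The median difference over the 8 markers was 0.155, with 5 above 0 and the lowest at -0.84. The part of these cells was not tested.

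Across the 4 comparisons with wild type, Mrps35 rose in every one. Rpl19, Rpl41, Rps9, Mrps34 and Mrpl48 rose in 3 of the 4 and did not pass in Clcn1-null muscle. Of these, Rps9 lost its call in 14 and 13 of 18 runs without single mice for line 20b and line 41 and in 8 of 10 for Mbnl1-null muscle. Rpl41 lost it in 6 of 18 runs for line 41 and in 7 of 10 for Mbnl1-null muscle, Mrpl48 in 5 of 10 for Mbnl1-null muscle, and Mrps35 in 13 of 18 for line 41 and in 5 of the 6 for Clcn1-null muscle. With the mean over probe sets, Mrpl48 did not pass in line 20b or line 41. Under that setting Rpl41 did not pass in line 41 or Mbnl1-null muscle, nor Rps9 in Mbnl1-null muscle. The line 20b and Mbnl1-null comparisons share no mice: 6 cytosolic genes rose in both (Rpl19, Rpl41, Rpl6, Rplp0, Rps9 and Rpsa), which is 6 of the 24 of line 20b and 6 of the 7 of Mbnl1-null muscle. For mitochondrial genes 5 rose in both (Mrpl48, Mrps12, Mrps34, Mrps35 and Mrps36), 5 of the 13 and 5 of the 8. As 24 of 44 cytosolic genes tested rose in line 20b, a large cytosolic overlap is to be expected from that share alone. For mitochondrial genes the line 20b share was 13 of 76. The overlap over all genes was not counted, and neither overlap was tested. The 2 transgenic lines share their wild-type mice, and their values stand side by side: Mrps24 gave -0.29 in line 20b and -0.39 in line 41, Mrps27 gave 0.50 and 0.40, and Rpl41 gave 0.31 and 0.27. Mrpl52 rose in line 20b and fell in Clcn1-null muscle, with no test of that difference between experiments.

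**Figure D5:**
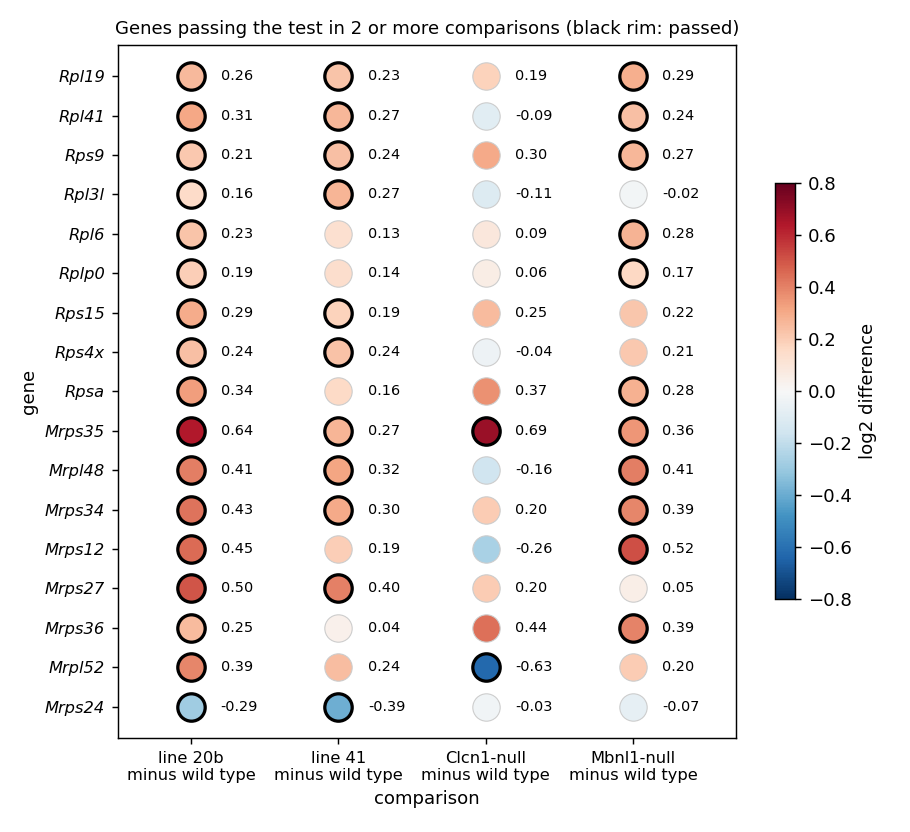
Log2 difference, mutant minus wild type, of each ribosomal protein gene that passed the test in 2 or more of the 4 comparisons, cytosolic genes above mitochondrial ones, with colour for the difference and a black rim where the test was passed. Mrps35 has a black rim in all 4 columns, and Mrps24 is negative in line 20b (-0.29) and line 41 (-0.39).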

How the data were processed

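Quadriceps RNA of 34 mice was measured on Affymetrix arrays, an array pair per mouse in experiments 1 and 2 and a single array in experiment 3. The deposited values are linear intensities that the authors made with GCRMA, per the submitters' processing notes; its version is not given in the sources used here. Intensities were taken to log2 and not renormalised. Experiments were never compared in level, although experiments 1 and 2 were deposited together. The values of both arrays of a mouse were joined, and probe sets with a single symbol were kept. The brightest probe set of each gene, by its mean over experiments 1 and 2 together or over experiment 3, stood for it.

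Each experiment was fitted over all genes with limma 3.58.1 in R 4.3.3 (lmFit, eBayes with trend), with all groups of the experiment sharing the spread and Benjamini-Hochberg adjustment over all genes tested. A call is an adjusted p under 0.05, errors are standard errors of the fit, and the code was tested on simulated data. The members, gene lists and tests were chosen with earlier results of these data known. Named per comparison were up to 10 called members of each class with the largest rise and with the largest fall, those called in 3 of the 4 comparisons with wild type, Rpl3, Rpl3l, Rplp0, Rpsa, Rps6, the paralogue pairs, and up to 3 called genes per pathway list. Sesn1, Foxo3 and Akt2, ranks 4 to 6 of the growth signalling list in line 20b against wild type, are given besides. Named after their values were seen are Rps3 and Mrpl35, for a probe set that fell, Rpl38 and Rps26, for the letters CTTTC, and Mrps10, for a mouse that stood apart.

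Replicate numbers name mice and were not taken to pair them. Whether mice were litter mates is not given, so p-values measure the spread between these mice. The number of arrays limits the precision. Alternatives tried were quantile normalisation, a shift to equal medians, no filter and a stricter filter, other choices of probe set, array weights, eBayes without trend, a stricter threshold, the replicate block and leaving out mice.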

Additional observations from a re-analysis of the deposited data

Results flagged for a closer look

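Among named genes, 8 of 215 groups of mice held 1 mouse far from the others by Dixon's test (3.72%), where chance gives about 1 in 20. On the log2 scale, Rpl39l read 6.34 in line 41 mouse 5 (nearest mouse 5.6) and Rps9 read 12 in line 41 mouse 3 (nearest 12.35). The other 6 were wild-type mice of experiment 1. Mrps35 read 11.42 in mouse 1 (nearest 11.21), Mrps2 read 11.66 in mouse 2 (nearest 12.01) and Rpl39l read 5.77 in mouse 2 (nearest 5.53). Mrpl54 read 11.02 in mouse 3 (nearest 11.41), Rpl7l1 read 11.34 in mouse 5 (nearest 10.97) and Mrps12 read 11.88 in mouse 6 (nearest 12.16).

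Line 20b and line 41 differed, by limma's test of line 20b minus line 41, in 10 ribosomal protein genes, all higher in line 20b. Only Mrps2, Mrps35 and Mrpl44 kept the call in each of 18 runs without single mice. With the mean over probe sets Mrpl47 turned to -0.076, and Mrps2 and Mrps9 did not pass. The differences were 0.4 for Mrps2, 0.37 for Mrps35, 0.35 for Mrpl44, 0.35 for Mrps9, 0.32 for Mrpl18, 0.24 for Mrpl37, 0.23 for Mrpl22, 0.21 for Mrpl47, 0.21 for Mrps36 and 0.15 for Rps3a1.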

How the results depend on the processing

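Values are counts of genes that passed unless named as medians. For line 20b against wild type, 24 rising cytosolic genes became 13 at adjusted p under 0.01, and 1 fell without probe sets marked as shared. Its 13 rising and 1 falling mitochondrial genes became 25 rising (median 0.159) under the median shift, 8 rising at adjusted p under 0.01, and 2 falling with 1 probe set over the 3 tables or with array weights. For line 41, 6 rising cytosolic genes became 10 (median shift), 3 (no filter, and likewise without trend) and 1 (adjusted p under 0.01). Its mitochondrial calls became 4 falling with the mean over probe sets, 2 rising at adjusted p under 0.01, and 1 falling without wild-type mice 1 and 2. For line 20b against line 41, the 1 cytosolic gene, Rps3a1, became 2 others (median shift, median 0.093), 1 other (quantile), 4 with it (array weights) and 0 (no filter, without trend, adjusted p under 0.01), and the 9 mitochondrial genes became 15 (quantile), 17 (median shift), 16 (array weights) and 2 (adjusted p under 0.01). For Clcn1-null muscle, cytosolic calls became 1 rising (median shift) and 8 rising with 4 falling (array weights). Its mitochondrial calls became 2 rising and 1 falling under quantile normalisation (median 0.053), the median shift and the mean over probe sets, 1 falling with no filter or 1 probe set over the 3 tables, 12 rising and 14 falling with array weights, and 0 at adjusted p under 0.01. For Mbnl1-null muscle, cytosolic calls became 4 rising and 0 falling (no filter), 15 rising (array weights), 4 rising (without trend), and 1 rising and 0 falling (adjusted p under 0.01). Its mitochondrial calls became 5 rising (no filter), 15 rising and 1 falling (array weights) and 1 rising (adjusted p under 0.01). The causes were not tested.

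Deviations of same-numbered mice correlated at -0.19 to 0.43. In experiment 3, 4 of 5 pairs exceeded 0.1 and 6 of 10 mice correlated best with their own number, and no experiment had this in every pair or mouse. The numbers were not taken to pair mice because no label ties them to a litter or batch. Whether mice of one number were handled together was not tested, and these correlations do not settle it. With the number as a block, line 20b gave 23 rising cytosolic and 13 rising mitochondrial genes, line 41 gave 8 and 4, line 20b against line 41 gave 0 and 8, Clcn1-null gave 0 and 0 with 0 falling, and Mbnl1-null gave 13 and 10 with 2 mitochondrial genes falling.

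Leaving out single mice, line 20b gave 17 to 24 rising and 0 to 1 falling cytosolic genes (median 0.175 to 0.213) and 9 to 14 rising and 1 to 2 falling mitochondrial genes (0.074 to 0.105). Line 41 gave 3 to 7 rising and 0 falling (0.087 to 0.129), and 2 to 4 rising and 2 to 4 falling (-0.06 to -0.005). Line 20b against line 41 gave 0 to 3 (0.05 to 0.074) and 4 to 12 (0.088 to 0.121), with 0 lower. Clcn1-null gave 0 to 1 rising and 0 to 1 falling (-0.039 to 0.052), and 0 to 4 rising and 0 to 4 falling (-0.073 to 0.021). Mbnl1-null gave 2 to 10 rising and 0 to 1 falling (0.12 to 0.166), and 4 to 12 rising and 0 to 1 falling (0.083 to 0.138).

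Single named genes kept direction and call in 4997 cases, lost the call in 340, gained it in 101 and reversed in 5. The 5 were Mrpl47 with the mean over probe sets (-0.133 for line 20b against wild type and -0.076 against line 41), Mrpl52 with 1 probe set over the 3 tables (-0.06 in line 20b and 0.011 in Clcn1-null muscle) and Rpl41 without shared probe sets (-0.069 in line 20b). The share of rising calls over all genes was 46.6% in line 20b, against 56.4% with quantile normalisation and 58.9% with the median shift; the median shift also moved it to 71.7%, against 59.2%, for line 20b against line 41, and to 59.2%, against 49.6%, for Mbnl1-null muscle. Rpl39l in experiments 1 and 3 and Rps6 in experiments 1 and 2 lie near or below the lower limit of signal.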

Other observations

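Nuclear subunits of the respiratory chain, which work beside the products of the mitochondrial ribosome, were read from the same fits. Of 72 tested in line 20b, 15 rose and 2 fell (23.6%, near the 19.5% of all genes), with a median of 0.047, led by Ndufa2 of complex I (0.42, adjusted p = 1.89e-06). In line 41, 7 rose and 5 fell (16.7%, beside 9.17% of all genes). Of all genes with a mean level of 12 or more, 36.1% passed in line 20b and 17.7% in line 41. In Mbnl1-null muscle 4 of 71 rose (5.63%, below the 16.2% of all genes), with Ndufb3 at 0.36 and Ndufa2 at 0.31. None of 72 passed in Clcn1-null muscle by limma, with 15 at an unadjusted p under 0.05.

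Of 24 genes of growth signalling upstream of ribosome synthesis, 2 rose and 4 fell in line 20b (25%, beside 19.5% of all genes), and in line 41 1 rose, Rptor by 0.27, and none fell (4.17%, beside 9.17%). In line 20b the growth factor Igf1 fell by 1.93 (adjusted p = 0.000479), Rictor, a part of one of the mTOR complexes, by 0.66, and the translation repressor Eif4ebp2 by 0.62. Akt2 fell by 0.34 there, and Sesn1 rose by 0.58 and the transcription factor Foxo3 by 0.51. Of 21 tested in Mbnl1-null muscle, 1 rose and 1 fell (9.52%, below the 16.2% of all genes), Foxo3 by 0.51 and Eif4ebp2 by 0.55. In Clcn1-null muscle 1 of 24 rose and none fell (4.17%, beside 5.4% of all genes): Foxo1 by 1.58 (adjusted p = 0.021). Clcn1 itself was lower in line 20b (11.3, against 12.3 in wild type), in line 41 (11.8, against 12.3 in wild type) and in Mbnl1-null muscle (9.11, against 10.2 in wild type).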
